A study of Arabidopsis thaliana with 32 samples.

Results

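Roots of the wild-type Arabidopsis thaliana accession WS (Wassilewskija) grown in spaceflight were compared at 8 d and at 4 d after the plates were exposed to light, in 4 samples at each age. The loci described are all 1075 that the authors' Cuffdiff test marked significant (q under 0.05) between these ages, out of 4882 loci that they listed in any of 11 such comparisons. The roots behind 1 sample numbered 2 to 3 at the older age and 5 to 8 at the younger one, so the ages differ in the number of plants behind a sample. Further groups used below are Sku5 roots in spaceflight at 8 d and 4 d, mutant in SKU5, whose loss makes roots skew more strongly to one side, and WS on the ground at 8 d and 4 d, each with 4 samples of whole roots. All plants grew on vertical plates of solid medium in the Veggie hardware, lit at 100 to 135 µmol per m2 and s, and the ground unit followed the station's temperature, carbon dioxide and light with a 48 h delay. Seedlings were fixed in RNAlater and roots were dissected from them after thawing.

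Each value is the authors' single FPKM (fragments per kilobase of transcript and per unit of mapped fragments) for a group, and every FPKM, q-value and call below comes from the authors' deposited tables. A spread between the 4 samples cannot be computed from them, and depth per sample is unknown. The only error is therefore a standard error obtained by dividing each log2 fold change by the authors' test statistic, a rough scale whose median over the loci was 0.43 on the log2 scale. Folds were computed from the FPKM values. A locus that no table lists has no value, so the totals of the groups below are the members that at least 1 of the 11 tables lists. In whole roots, fewer cells of a type and less RNA per cell cannot be told apart.

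A young root grows from a meristem at its tip, where cells divide and make ribosomes and histones. Cells behind it elongate and mature into root hair cells, endodermis, xylem and phloem, so an older root holds more mature tissue and, later, a vascular cambium. A seedling also starts out on reserves laid down in the seed, oils and storage proteins, and uses them up as it establishes.

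The loci split into 469 that were higher at 8 d and 606 that were lower. These are 9.61% and 12.4% of the 4882 loci, and both directions together are 22.0%, which is the background for each count of listed members below. The loci higher at 8 d had a median rise of 1.92-fold, and those lower at 8 d a median fall of 1.75-fold, leaving out 4 loci listed at 0 at 4 d and 24 listed at 0 at 8 d. The largest changes lay on the falling side: 10 loci rose and 31 fell by at least 8-fold. The median log2 fold change of all listed loci was -0.51. The plot of both levels shows these branches, with the ribosomal proteins at the top of the falling one.

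**Figure D1:**
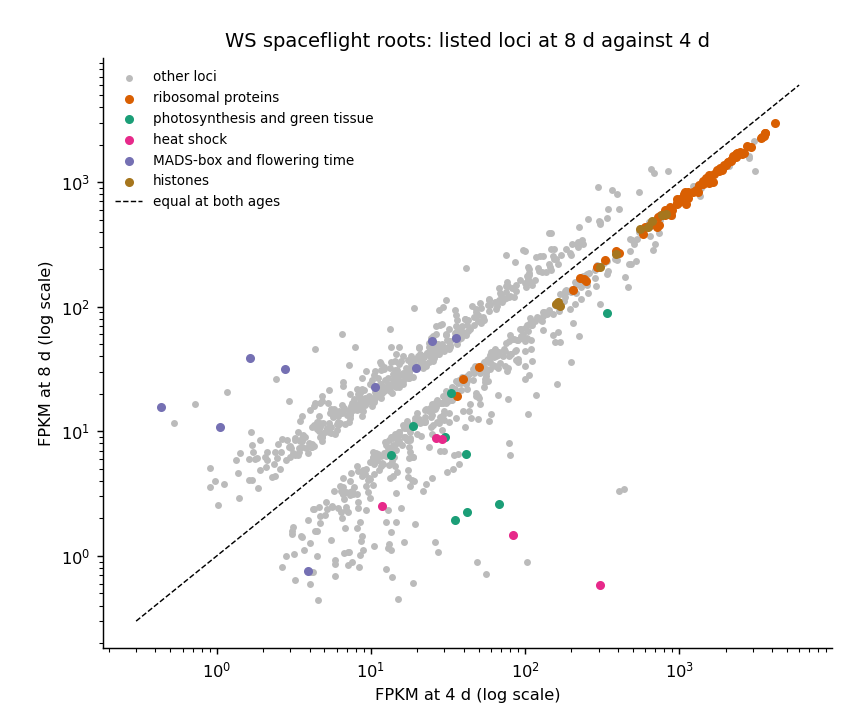
FPKM of each locus at 8 d (vertical) and at 4 d (horizontal), both on log scales, in WS spaceflight roots; each point is a locus with values above 0 at both ages, and the dashed line marks equal levels. The ribosomal proteins and histones lie close below the line, the heat shock loci and the Rubisco loci among the photosynthesis loci farther below it, and all but 1 of the MADS-box loci shown above it.

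The sequences that bear on the groups described next were read from the RefSeq genome TAIR10.1, which is the Columbia accession and not WS, at RefSeq's own gene starts. They are the 250 bases before the gene start of 4 genes that were lower at 8 d, each free of another annotated gene. They are written 5′ to 3′ along the gene's strand. Capitals mark matches, on either strand, of only the motifs named for that gene. Matches of the other motifs, such as site II letters in the HSP17.4 and GDPD1 windows, stay in lower case. AT2G37600 encodes a ribosomal protein of the L36e family, and its capitals mark the site II letters TGGGCC and the telo box AAACCCTA, both known from promoters of plant ribosomal protein genes. HSP17.4 (AT3G46230) encodes a small heat shock protein, and its capitals mark a heat shock element, here GAA, TTC and GAA with 2 free bases between each. GDPD1 (AT3G02040), a phosphodiesterase of the phosphate starvation response, shows GNATATNC, the letters of the P1BS motif that PHR1 binds. PAP85 (AT3G22640), a vicilin-like seed storage protein, shows CATGCATG, the RY repeat of seed genes.
AT2G37600, chr2:15775375-15775624, minus strand: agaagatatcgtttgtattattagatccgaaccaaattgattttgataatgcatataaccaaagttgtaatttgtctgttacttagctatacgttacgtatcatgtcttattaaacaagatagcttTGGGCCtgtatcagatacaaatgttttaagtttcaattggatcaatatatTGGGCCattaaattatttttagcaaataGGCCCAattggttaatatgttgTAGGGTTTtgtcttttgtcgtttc
HSP17.4, chr3:16984868-16985117, minus strand: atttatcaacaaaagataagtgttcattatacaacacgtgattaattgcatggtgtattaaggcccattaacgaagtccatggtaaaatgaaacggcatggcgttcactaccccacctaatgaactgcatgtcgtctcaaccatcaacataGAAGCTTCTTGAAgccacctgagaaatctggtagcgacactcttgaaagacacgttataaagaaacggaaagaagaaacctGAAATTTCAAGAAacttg
GDPD1, chr3:350011-350260, minus strand: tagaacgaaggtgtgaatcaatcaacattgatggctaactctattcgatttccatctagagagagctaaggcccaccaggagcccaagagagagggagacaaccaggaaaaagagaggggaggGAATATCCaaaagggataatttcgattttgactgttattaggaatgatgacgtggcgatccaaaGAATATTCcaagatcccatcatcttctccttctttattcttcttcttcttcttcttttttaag
PAP85, chr3:8013942-8014191, minus strand: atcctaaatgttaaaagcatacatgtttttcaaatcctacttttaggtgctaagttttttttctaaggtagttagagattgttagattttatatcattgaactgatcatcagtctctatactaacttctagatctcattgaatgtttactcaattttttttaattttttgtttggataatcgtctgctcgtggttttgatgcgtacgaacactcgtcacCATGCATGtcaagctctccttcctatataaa

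Over windows of the same length before all 27439 protein-coding genes, the site II letters were present in 13.7%, and they were present in 42 of 78 listed ribosomal protein genes with a locus of their own, or 53.8%. The telo box stood in 11 of these 78 windows, or 14.1%, and in 4.49% of all. The P1BS letters stood in 2 of 5 windows of the listed phosphate genes and in 5.46% of all windows. The heat shock element was found before 1 of 6 listed heat shock genes and before 0.386% of all genes. The RY repeat was found before 2 of 8 listed seed genes and before 0.776% of all genes. The site II letters were not limited to ribosomal protein genes, since they also stood before 4 of the 6 listed heat shock genes. A match of letters is a description of the window and not a binding site.

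The 2 microRNA genes in the table moved in opposite directions, and their mature sequences, with the seed (bases 2 to 8) in capitals, share no seed.
miR158b, chr1:20772273-20772292, plus strand: cCCCAAAUguagacaaagca
miR160b, chr4:9888986-9889006, plus strand: uGCCUGGCucccuguaugcca
The FPKM is that of the gene's transcript and not of the mature microRNA. The MIR158b locus (AT1G55591) had 5.43 FPKM at 8 d, against 37.2 FPKM at 4 d, a fall of 6.85-fold. MIR160b (AT4G17788), whose microRNA targets mRNAs of auxin response factors, had 16.9 FPKM at 8 d and 4.36 FPKM at 4 d, a rise of 3.88-fold. The q-value was 0.00218 for both in the authors' deposited table, with standard errors of 0.94 and 1.08 on the log2 scale.

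Ribosomal protein genes were the most numerous of the groups that fell, with small and uniform changes. All 80 loci of cytosolic ribosomal proteins in the table were lower at 8 d, of 157 that any table lists, against 12.4% of all loci. Their falls lay between 1.32-fold and 1.89-fold, with a median log2 fold change of -0.54, and none reached 2-fold. They include 39 of the 50 loci with the highest level at either age. Their summed level was 80435 FPKM at 8 d and 117117 FPKM at 4 d. The authors' scaling of the groups differs a little between their tables, and values from the tables against the ground would shift every log2 fold change by 0.17, which turns no direction here.

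The ribosomal protein locus with the highest level was AT3G18740, of the L30e family, with 2973 FPKM at 8 d and 4216 FPKM at 4 d. The large-subunit proteins AT3G04400 (L14p/L23e), with 2479 FPKM at 8 d and 3625 FPKM at 4 d, and AT4G18100 (L32e), with 2487 FPKM at 8 d and 3617 FPKM at 4 d, followed. Among the small-subunit proteins the S5-family gene AT1G58684 had the largest fall, 1.89-fold, with 19.1 FPKM at 8 d and 36.2 FPKM at 4 d. RPS18C (AT4G09800) had 671 FPKM at 8 d and 1111 FPKM at 4 d. The S25 gene AT2G21580 had 1002 FPKM at 8 d and 1654 FPKM at 4 d. AT2G37600, whose promoter is printed above, had 735 FPKM at 8 d and 1020 FPKM at 4 d. The q-values in the authors' deposited table ran over 0.00218 to 0.0494, the whole range of the table. Many of these genes have near-identical copies, among which the authors' counting could split fragments, so single copies are uncertain. Beside them, the nucleoside diphosphate kinase NDPK1 had 2153 FPKM at 8 d and 3079 FPKM at 4 d, and the elongation factor gene LOS1 lies in a merged locus of 5 genes with 368 FPKM at 8 d and 644 FPKM at 4 d.

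The listed histone genes fell by a like amount. All 10 listed histone loci, of 21 in any table, were lower at 8 d, by 1.33-fold to 1.69-fold, with a median log2 fold change of -0.56. RAT5, a histone H2A gene, had 100.5 FPKM at 8 d and 169.6 FPKM at 4 d, a fall of 1.69-fold. HTA9, an H2A variant, had 265 FPKM at 8 d and 390.3 FPKM at 4 d. AT4G40040, AT5G59690 and AT5G10980 are named only as histones in the reference, and AT4G40040 had 552 FPKM at 8 d and 821 FPKM at 4 d. No gene of the list of cell cycle and DNA replication (37 genes, 5 loci in any table) was listed. Of the meristem markers CYCB1;1, KNOLLE, PLT1, PLT2, WOX5 and CDKB2;1 none was listed either, which says only that they were not marked significant.

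**Figure D2:**
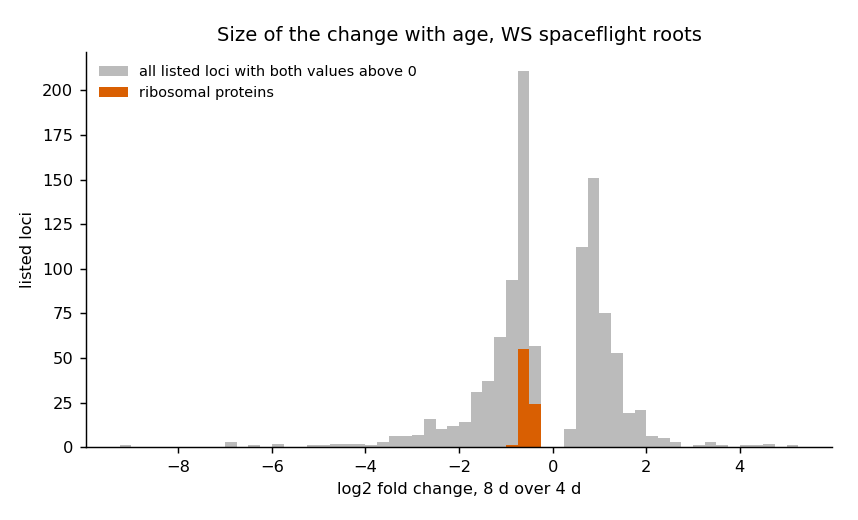
Number of listed loci (vertical) by log2 fold change of 8 d over 4 d (horizontal, bins of 0.25), for all loci with values above 0 at both ages and, in colour, the ribosomal proteins. The ribosomal proteins fill part of the peak just below 0, and the long tail to the left holds heat shock and Rubisco loci.

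The listed transcripts of seed reserves and seed maturation were lower at 8 d, most of them at or near 0. All 8 listed loci of that list, of 15 in any table, were lower at 8 d, and 5 of them were listed at 0 at 8 d. PAP85 was listed at 0 at 8 d and had 84.0 FPKM at 4 d. The 2S albumin gene SESA2 was listed at 0 at 8 d and had 59.7 FPKM at 4 d. The other members listed at 0 at 8 d were SESA3, SESA1 and the oil-body gene CLO1, with 12.4, 8.85 and 21.0 FPKM at 4 d. MLS (malate synthase), an enzyme of the glyoxylate cycle that turns stored oil into sugar, had 1.29 FPKM at 8 d, against 26.02 FPKM at 4 d. Its partner ICL (isocitrate lyase) lies in a locus merged with AT3G21680 that had 59.5 FPKM at 8 d and 152 FPKM at 4 d. LEA4-5, a late embryogenesis abundant protein gene, lies in a merged locus of 4 genes with 32.5 FPKM at 8 d and 77.9 FPKM at 4 d. The seed markers CRA1, CRU3, OLEO1, EM1 and EM6 were not listed.

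Several of the largest falls outside that list belong to genes known from seeds. AT2G21820, named a seed maturation protein in the reference, had 3.32 FPKM at 8 d, against 408 FPKM at 4 d, a fall of 123-fold with a standard error of 1.14 on the log2 scale. XERO1, a dehydrin, had 0.900 FPKM at 8 d, against 104 FPKM at 4 d, with a q-value of 0.0484 in the authors' deposited table. The uncharacterized gene AT1G03106 had the largest fall of a locus with a single gene, 127-fold, with 3.47 FPKM at 8 d and 441 FPKM at 4 d. GLYI8, a glyoxalase, had 0.901 FPKM at 8 d and 48.8 FPKM at 4 d. The dehydrogenase-like gene AT3G05260 had 0.719 FPKM at 8 d and 55.5 FPKM at 4 d. AtMT4a, a metallothionein, was listed at 0 at 8 d and had 59.5 FPKM at 4 d. Of the 24 loci listed at 0 at 8 d, the highest at 4 d was an unnamed locus of 77 bases on chromosome 3, shorter than a usual fragment, whose FPKM is therefore hard to compare with others.

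The listed photosynthesis transcripts all fell. All 9 listed loci, of 11 in any table, were lower at 8 d, with a median log2 fold change of -1.94. RBCS1A, a small subunit of Rubisco and the highest of them, had 88.9 FPKM at 8 d, against 342 FPKM at 4 d, a fall of 3.84-fold. RBCS3B had 2.60 FPKM at 8 d and 67.5 FPKM at 4 d, a fall of 25.9-fold. RBCS1B had 2.23 FPKM at 8 d and 41.8 FPKM at 4 d. RBCS2B had 1.94 FPKM at 8 d and 35.2 FPKM at 4 d. These small-subunit genes are near-identical neighbours on chromosome 5 apart from RBCS1A, so their separate values are uncertain. RCA (Rubisco activase) had 6.62 FPKM at 8 d and 41.6 FPKM at 4 d. GAPA, a plastid glyceraldehyde phosphate dehydrogenase, had 8.98 FPKM at 8 d and 30.5 FPKM at 4 d. GOX1, a glycolate oxidase of photorespiration outside the list, had 0.672 FPKM at 8 d and 13.7 FPKM at 4 d. Of the 6 green tissue markers RBCS1A alone was listed. The sources used here do not give how much shoot tissue was left at the cut of each root, and its part in these values was not tested.

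Heat shock transcripts were lower at 8 d at all 5 listed loci, of 12 in any table, with a median log2 fold change of -2.24. The merged locus of the small heat shock genes HSP17.6II and HSP17.6A had 0.583 FPKM at 8 d, against 306 FPKM at 4 d, but its standard error of 4.81 on the log2 scale is large beside the log2 fold change of -9.03. HSP17.4 had 1.48 FPKM at 8 d and 83.2 FPKM at 4 d, a fall of 56.3-fold with a standard error of 1.60. The chaperone genes HSP70B and HSP90.1 had smaller errors. HSP70B had 2.501 FPKM at 8 d and 11.8 FPKM at 4 d. HSP90.1 had 8.63 FPKM at 8 d and 29.0 FPKM at 4 d. HSP70 (AT3G12580) had 8.84 FPKM at 8 d and 26.4 FPKM at 4 d. HSP90.1 was also listed between spaceflight and ground at both ages, in tables that share these spaceflight samples. It had 9.46 FPKM in spaceflight and 5.17 FPKM on the ground at 8 d, and 28.2 FPKM in spaceflight and 15.2 FPKM on the ground at 4 d.

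Genes of nutrient uptake and starvation were listed in differing shares. All 5 listed phosphate starvation loci, of 13 in any table, fell, by 1.95-fold to 3.38-fold, and each had a q-value of 0.00218 in the authors' deposited table. GDPD1 had 19.7 FPKM at 8 d and 66.5 FPKM at 4 d. IPS1, a non-coding RNA that sequesters miR399, had 51.9 FPKM at 8 d and 158 FPKM at 4 d. The remaining 3 were also lower. PS2, a phosphatase gene, had 19.3 FPKM at 8 d and 49.6 FPKM at 4 d. The phosphate transporter PHT1;4 had 13.5 FPKM at 8 d and 29.6 FPKM at 4 d. SPX1, a phosphate sensor protein, had 45.0 FPKM at 8 d and 87.6 FPKM at 4 d. Of the iron list 3 loci of 20 in any table were listed, a share below the background of 22.0%, and all 3 were lower. NAS4, an enzyme that makes the iron chelator nicotianamine, had 10.9 FPKM at 8 d and 40.9 FPKM at 4 d. The citrate exporter FRD3 had 12.01 FPKM at 8 d and 19.4 FPKM at 4 d. The peptide gene IMA1 had 91.0 FPKM at 8 d and 144 FPKM at 4 d.

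The nitrogen list was below the background, with 4 of 24 loci listed, and was divided. The high-affinity nitrate transporter NRT2.1 had 1.35 FPKM at 8 d and 5.54 FPKM at 4 d. Its partner NRT3.1 had 31.5 FPKM at 8 d and 55.1 FPKM at 4 d. The asparagine synthetase ASN1 had 0.815 FPKM at 8 d and 8.42 FPKM at 4 d. These 3 were lower. NRT1.5, which loads nitrate into the xylem, was higher, with 159 FPKM at 8 d and 107 FPKM at 4 d. Of the sulfur list 2 of 7 loci were listed, and they parted, SULTR2;1 of the vascular tissue with 11.3 FPKM at 8 d and 25.2 FPKM at 4 d and SULTR1;2 of the uptake system with 103 FPKM at 8 d and 59.2 FPKM at 4 d.

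The listed loci of cell wall and surface proteins went both ways. The 4 listed arabinogalactan proteins, of 21 in any table and so near the background share, were all lower. Of these glycoproteins AGP9 had 393 FPKM at 8 d and 741 FPKM at 4 d. FLA13 had 18.1 FPKM at 8 d and 77.2 FPKM at 4 d. Of 8 listed extensin loci, structural wall proteins with 29 loci in any table, 7 were lower and 1 higher, led in level by AT2G43150 with 1014 FPKM at 8 d and 1662 FPKM at 4 d. Of 11 listed lipid transfer protein loci, of 33 in any table, 9 were lower, among them LTP2 with 57.9 FPKM at 8 d and 225 FPKM at 4 d, and LTP5 was higher with 114 FPKM at 8 d and 30.6 FPKM at 4 d. The defensin-like genes were all lower (4 of 10 in any table), AT4G22212 with 774 FPKM at 8 d and 1361 FPKM at 4 d and PDF1.4 with 3.99 FPKM at 8 d and 19.0 FPKM at 4 d. The wall-loosening expansins EXPA15, with 188 FPKM at 8 d and 137 FPKM at 4 d, and EXPA14, with 29.2 FPKM at 8 d and 17.7 FPKM at 4 d, were higher. The wall enzymes XTH18, with 46.6 FPKM at 8 d and 27.5 FPKM at 4 d, and XTH32, with 53.6 FPKM at 8 d and 31.0 FPKM at 4 d, were also higher. These are 2 of 8 expansin loci and 2 of 12 xyloglucan enzyme loci in any table, shares near or below the background.

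The listed loci of wall cross-linking enzymes and defence were mixed. Of 9 listed loci that the reference names peroxidases, of 33 in any table and so near the background share, 6 were higher and 3 lower. AT2G18150 had 17.42 FPKM at 8 d and 2.96 FPKM at 4 d, and AT4G30170 was the highest with 292 FPKM at 8 d and 185 FPKM at 4 d. DOX1, an alpha-dioxygenase that the reference also names a peroxidase, had 32.2 FPKM at 8 d and 67.0 FPKM at 4 d. Of the defence list 4 loci of 8 were listed. ORA59, a regulator of jasmonate and ethylene defence, had 7.46 FPKM at 8 d and 2.96 FPKM at 4 d. PR4 had 257 FPKM at 8 d and 152 FPKM at 4 d. Both were higher at 8 d. PAD4 had 18.5 FPKM at 8 d and 10.4 FPKM at 4 d, and PEN3, an ABC transporter, was lower with 34.2 FPKM at 8 d and 62.3 FPKM at 4 d. The chitinase gene AT2G43590 had one of the 12 largest rises, 10.7-fold, with 46.1 FPKM at 8 d and 4.32 FPKM at 4 d and a standard error of 0.61 on the log2 scale. Among glutathione transferases, with 7 of 22 loci listed, 4 loci were higher and 3 lower, and the gene GSTF14 accounts for 2 of the higher ones.

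Genes of MADS-box transcription factors held several of the largest rises. Of 10 listed loci, of 14 in any table, 9 were higher at 8 d and 1 lower, against 9.61% and 12.4% of all loci, and the median log2 fold change was 1.098. AGL42 (AT5G62165), a relative of the flowering gene SOC1 that marks the quiescent centre of the root, had 38.8 FPKM at 8 d, against 1.64 FPKM at 4 d, a rise of 23.57-fold with a standard error of 1.13 on the log2 scale. AGL14, which acts in root auxin transport, had 31.6 FPKM at 8 d and 2.76 FPKM at 4 d, a rise of 11.5-fold. SOC1 itself, a floral integrator, had 10.9 FPKM at 8 d and 1.05 FPKM at 4 d, a rise of 10.4-fold. AGL19 had 15.6 FPKM at 8 d, against 0.435 FPKM at 4 d, the largest rise of a locus with 1 gene, but its standard error of 4.66 nearly equals its log2 fold change of 5.17, and the authors' locus at Chr4:11697844-11749949 is far longer than 1 gene. That position is in the authors' coordinates, of a build that the sources used here do not give. Other loci named for 1 gene are also far longer than 1 gene. Among them are IAA9 with 57608 bases, AT1G54410 with 57481, GH3.5 with 44888, AtMT4a with 35192, SP1L2 with 34267 and AT3G45160 with 33095. Their values may not be of the named gene alone.

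The remaining MADS-box loci moved less. AGL12 (XAL1), which acts in root meristem growth, had 53.5 FPKM at 8 d and 24.99 FPKM at 4 d. AGL21 had 22.8 FPKM at 8 d and 10.6 FPKM at 4 d. AGL16 had 32.4 FPKM at 8 d and 19.5 FPKM at 4 d. All 3 were higher at 8 d. The merged locus of MAF2 and MAF3, relatives of the floral repressor FLC, had 55.9 FPKM at 8 d and 35.7 FPKM at 4 d. MAF4, of the same family, was the one that fell, with 0.752 FPKM at 8 d and 3.91 FPKM at 4 d. AGL79 was listed at 0 at 4 d and had 3.03 FPKM at 8 d, so no fold is given. Outside the list, AGL67, a MADS-box gene of seeds, was listed at 0 at 8 d and had 53.2 FPKM at 4 d, so the rise did not extend to the whole family.

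The listed genes of the secondary wall and phloem lists were higher at 8 d. All 5 listed loci of the secondary wall list rose, by 1.56-fold to 2.24-fold, though as 5 of 17 in any table their share is near the background. TED6, a membrane protein of differentiating tracheary elements, had 193 FPKM at 8 d and 124 FPKM at 4 d. IRX9, which makes xylan, had 13.3 FPKM at 8 d and 6.14 FPKM at 4 d. MC9, a protease active when xylem cells die, had 13.4 FPKM at 8 d and 5.99 FPKM at 4 d. MYB63, a regulator of lignin genes, had 17.9 FPKM at 8 d and 9.09 FPKM at 4 d. Each of these was higher at 8 d. CTL2, a chitinase-like protein of wall formation, had 23.57 FPKM at 8 d and 14.8 FPKM at 4 d. The xylem markers VND7, CESA4, CESA7, CESA8 and XCP1 were not listed in any table. Of the phloem list 2 of 4 loci were listed. PP2-A1, a phloem lectin, had 30.3 FPKM at 8 d and 9.30 FPKM at 4 d. SEOR1, which forms sieve-element filaments, had 4.34 FPKM at 8 d and 2.297 FPKM at 4 d. WOX4, which keeps the vascular cambium dividing, had 21.6 FPKM at 8 d, against 5.39 FPKM at 4 d, a rise of 4.00-fold.

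Single genes of the root tip and the outer tissues were listed in both directions. RGF3 had 108 FPKM at 8 d and 51.0 FPKM at 4 d. RGF2 had 78.7 FPKM at 8 d and 36.3 FPKM at 4 d. Both encode root meristem growth factor peptides, and with AGL42 they are the 3 listed members of the stem cell niche list, of 7 in any table. WER, which sets the non-hair fate of epidermal cells, had 80.2 FPKM at 8 d and 40.9 FPKM at 4 d. ADF8, an actin factor of root hairs, had 71.8 FPKM at 8 d and 46.4 FPKM at 4 d, while none of the trichoblast markers was listed. WER and ADF8 are the 2 listed of 10 root hair loci in any table, a share near the background. LAZY4, a gravitropism gene and the 1 listed of 4 loci of the root cap and gravitropism list, had 20.17 FPKM at 8 d and 8.47 FPKM at 4 d. SCR, which specifies the endodermis, was lower, with 6.35 FPKM at 8 d and 13.6 FPKM at 4 d. The suberin genes CYP86A1, with 23.0 FPKM at 8 d and 13.7 FPKM at 4 d, and MYB93, with 19.6 FPKM at 8 d and 11.1 FPKM at 4 d, were higher.

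Of the auxin list 9 of 20 loci in any table were listed, 5 higher and 4 lower. The Aux/IAA repressors of auxin response IAA1, IAA4, IAA9, IAA17 and IAA28 were higher, by 1.54-fold to 1.94-fold, and IAA9 was the highest with 318 FPKM at 8 d and 202 FPKM at 4 d. IAA4 had 113 FPKM at 8 d and 58.4 FPKM at 4 d. The auxin-conjugating enzymes GH3.3, with 0.742 FPKM at 8 d and 4.08 FPKM at 4 d, GH3.5, with 6.08 FPKM at 8 d and 17.5 FPKM at 4 d, and GH3.6, with 6.35 FPKM at 8 d and 12.6 FPKM at 4 d, were lower. So was the merged locus that holds the auxin transporter ABCB4, with 7.38 FPKM at 8 d and 12.9 FPKM at 4 d. Of the cytokinin list 5 of 11 loci were listed, all response regulators. ARR7 had 47.8 FPKM at 8 d and 13.5 FPKM at 4 d. ARR9 had 39.6 FPKM at 8 d and 21.8 FPKM at 4 d. ARR5 had 44.0 FPKM at 8 d and 29.9 FPKM at 4 d. These 3 were higher. ARR8 stood in the table as 2 loci that went opposite ways, 1 with 23.3 FPKM at 8 d and 11.3 FPKM at 4 d and the other with 25.6 FPKM at 8 d and 45.7 FPKM at 4 d, so no direction is given for it.

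All 4 listed loci of the hypoxia list, of 9 in any table, were higher at 8 d. FTM1 (AT1G43800), an acyl-carrier-protein desaturase, had 20.6 FPKM at 8 d, against 1.17 FPKM at 4 d, a rise of 17.64-fold. HB1, a haemoglobin, had 102 FPKM at 8 d and 45.5 FPKM at 4 d. PCO2, a cysteine oxidase that senses oxygen, had 14.01 FPKM at 8 d and 5.41 FPKM at 4 d. LBD41 had 16.1 FPKM at 8 d and 8.54 FPKM at 4 d. The classical fermentation genes of that list were not among them. FTM1 was also listed in the table that compares the same 8 d spaceflight samples with the ground, with 22.5 FPKM in spaceflight and 4.19 FPKM on the ground at 8 d.

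Other large rises were of single genes. AT5G44400, a berberine-bridge-like oxidase, had 11.6 FPKM at 8 d and 0.532 FPKM at 4 d, a rise of 21.9-fold. GLP6, a germin-like protein, had 16.5 FPKM at 8 d and 0.728 FPKM at 4 d, a rise of 22.6-fold with a q-value of 0.0246 in the authors' deposited table. SP1L2, a relative of the microtubule protein SPIRAL1, had 60.7 FPKM at 8 d and 6.52 FPKM at 4 d. BNQ3, a small helix-loop-helix protein, had 47.2 FPKM at 8 d and 7.94 FPKM at 4 d. AT1G12805 had 26.47 FPKM at 8 d and 2.43 FPKM at 4 d. AT3G27400, named a pectin lyase in the reference, had 9.87 FPKM at 8 d and 1.66 FPKM at 4 d. Among the loci with the highest levels the rises were smaller. The dehydrin gene AT1G54410 had 1263 FPKM at 8 d and 654 FPKM at 4 d. The succinate dehydrogenase gene SDH8 had 1235 FPKM at 8 d and 842 FPKM at 4 d. AT1G62480 had 1181 FPKM at 8 d and 684 FPKM at 4 d. AT3G45160 had the largest rise of the 8 rising loci with the highest levels, 3.07-fold, with 911 FPKM at 8 d and 297 FPKM at 4 d. GRP9, a glycine-rich protein, had 807 FPKM at 8 d and 396 FPKM at 4 d.

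Of the cold and dehydration list 5 of 17 loci were listed, a share near the background, and 4 of them were lower. ERD14, a dehydrin, was higher with 341 FPKM at 8 d and 235 FPKM at 4 d. The other members named were lower. RD22, a dehydration-induced gene, had 3.69 FPKM at 8 d and 10.4 FPKM at 4 d. The zinc-finger gene ZAT10 had 8.79 FPKM at 8 d and 18.04 FPKM at 4 d. The merged locus with LTP3 had 104 FPKM at 8 d and 308 FPKM at 4 d. All 8 listed receptor-like kinase loci were lower, by 1.44-fold to 1.86-fold, though as 8 of 36 in any table their share is near the background. They include the locus that merges the brassinosteroid receptor gene BRI1 with NST-K1, with 16.9 FPKM at 8 d and 30.6 FPKM at 4 d. HB33, a zinc-finger homeobox gene, had 0.599 FPKM at 8 d and 4.03 FPKM at 4 d, and the other 4 listed homeobox genes, WOX4, ATHB13, HAT14 and KNAT3, were higher. No locus was listed from the lists of glucosinolates, thalianol, jasmonate, flavonoids, the clock and the SKU5 family.

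Loci outside the lists, picked here after their values were seen, fill in the picture. The photosystem subunit gene PSAG had 19.3 FPKM at 8 d and 48.3 FPKM at 4 d. The plastid aldolase FBA2 had 7.51 FPKM at 8 d and 23.9 FPKM at 4 d. GGT1, an aminotransferase of photorespiration, had 12.3 FPKM at 8 d and 29.9 FPKM at 4 d. These fell beside the photosynthesis list. The dehydrin gene LEA (AT2G21490) was listed at 0 at 8 d and had 41.1 FPKM at 4 d, and the oleosin-family gene AT1G48990 was listed at 0 at 8 d and had 16.04 FPKM at 4 d. The protease inhibitors TI1, with 13.9 FPKM at 8 d and 104 FPKM at 4 d, and UPI, with 23.8 FPKM at 8 d and 162 FPKM at 4 d, were lower. MT2A, a metallothionein, had 173 FPKM at 8 d and 446 FPKM at 4 d.

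On the rising side of these, the gibberellin-regulated peptide genes GASA5, with 261 FPKM at 8 d and 75.4 FPKM at 4 d, and GASA6, with 25.1 FPKM at 8 d and 6.63 FPKM at 4 d, were higher. RGF7, a further growth factor peptide gene, had 72.9 FPKM at 8 d and 29.0 FPKM at 4 d. SP1L5, like SP1L2 a relative of SPIRAL1, had 94.8 FPKM at 8 d and 27.5 FPKM at 4 d. The sucrose transporter SUC1 had 40.1 FPKM at 8 d and 16.1 FPKM at 4 d. The sulfate transporter SULTR3;5 had 26.8 FPKM at 8 d and 8.76 FPKM at 4 d. Both transporters therefore rose by more than 2-fold.

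Most of the listed MYB and homeobox transcription factors were higher. Of 9 listed MYB loci, of 32 in any table, 7 were higher and 2 lower. MYB86 had 16.2 FPKM at 8 d and 6.51 FPKM at 4 d. MYB68, of the root pericycle, had 9.32 FPKM at 8 d and 3.63 FPKM at 4 d. The merged locus HOS10;AT1G35516 had 114 FPKM at 8 d and 229 FPKM at 4 d and was lower. Of the homeobox genes 5 of 18 loci in any table were listed, 4 of them higher. Both listed shares are near the background. ATHB13, a homeodomain leucine zipper gene, had 30.7 FPKM at 8 d and 10.7 FPKM at 4 d. KNAT3, a knotted-like gene, had 5.87 FPKM at 8 d and 2.84 FPKM at 4 d. CPL3, added here after its value was seen, encodes a small MYB protein related to the root hair regulator CAPRICE and was lower, with 12.1 FPKM at 8 d and 58.1 FPKM at 4 d. PLT5, which acts in lateral root formation, had 1.03 FPKM at 8 d and 3.19 FPKM at 4 d, with a q-value of 0.0418 in the authors' deposited table. PLT5 and the expansin EXPA14, which was higher, are the 2 listed of 7 lateral root loci in any table, a share near the background.

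**Figure D3:**
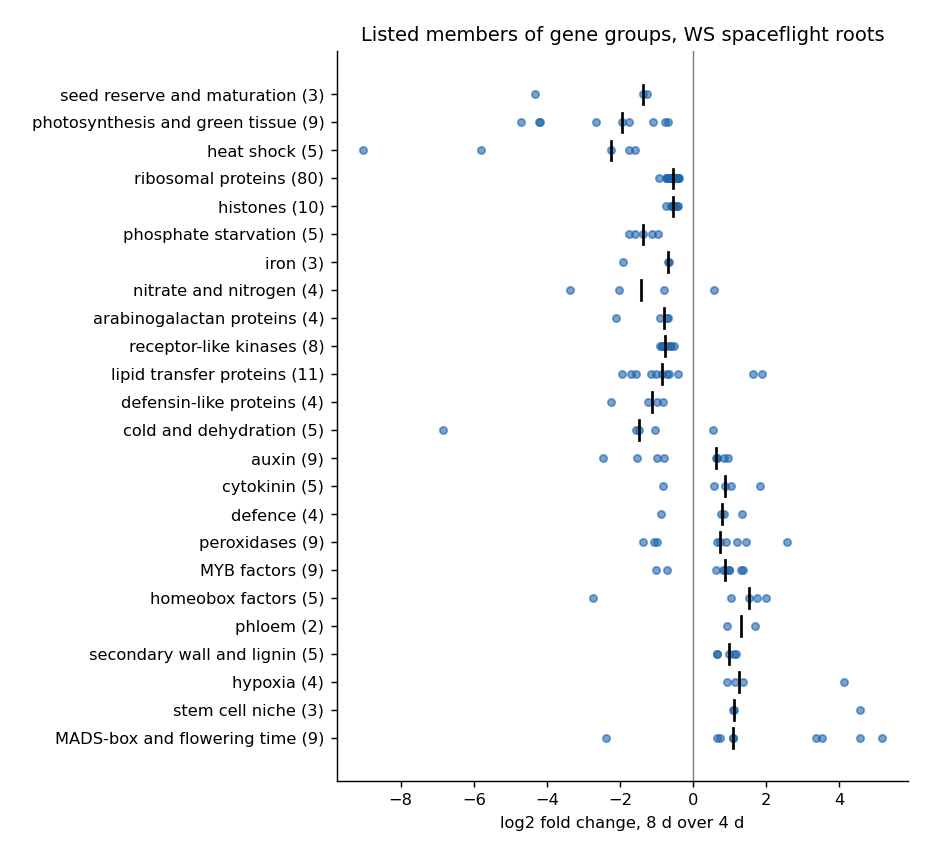
Log2 fold change of 8 d over 4 d (horizontal) of each listed member of 24 gene groups with values above 0 at both ages; points are loci, black ticks are medians, and the number of points is in brackets. Groups from seed reserves to defensin-like proteins have medians below 0, as do cold and dehydration genes, and the groups from auxin to MADS-box genes have medians above 0.

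The comparison of 8 d with 4 d on the ground uses other samples of the same accession, so it shows where the change with age recurred. It lists 1104 loci, 22.6% of the 4882. Both tables list 476 loci, which are 44.3% of the spaceflight loci and 43.1% of the ground loci. Of these, 472 moved in the same direction, with 219 higher and 253 lower at 8 d in both. For the 456 loci with a standard error in both, the median of the absolute difference between the log2 fold changes was 0.25, against a median standard error of that difference of 0.62. The difference passed 2 of its standard errors at 11 loci and 3 at 6 loci.

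Several of the groups moved the same way on the ground, and others had another split or other listed members there. The seed list had 9 loci lower of 9 listed on the ground, photosynthesis 5 of 5, phosphate starvation 9 of 9, and hypoxia 6 higher of 6. These lists have 15, 11, 13 and 9 loci in any table, so each share is above the 22.6% of all loci on the ground. AGL42 had 56.3 FPKM at 8 d and 8.02 FPKM at 4 d on the ground, and WOX4 had 35.5 FPKM at 8 d and 8.91 FPKM at 4 d. The auxin list had 3 loci higher and 6 lower on the ground, and a median log2 fold change of -0.88, against 0.62 in spaceflight. The 7 auxin loci listed in both kept their direction, so the medians differ in sign because each table lists other members. The 2 root hair loci listed on the ground were lower, and neither is among the 2 listed in spaceflight. Of the secondary wall list 1 locus was listed on the ground, higher at 8 d, and it is not among the 5 listed in spaceflight. The stem cell niche, homeobox and xyloglucan groups were split there, with 2 higher and 2 lower, 3 higher and 3 lower, and 3 higher and 3 lower, and the root cap list had 1 higher and 2 lower. These 4 groups share 2, 3, 2 and 1 loci with spaceflight, and each shared locus kept its direction. The ribosomal proteins differed in number. The 5 loci shared with spaceflight were lower at 8 d in both. The ground table listed 12 of 157 ribosomal protein loci, a share below the 22.6% of all loci in that table. Of these 12, 7 were higher and 5 lower at 8 d, where spaceflight had 80 lower. Because loci that missed the threshold are not listed, the difference between these counts was not tested. MADS-box loci on the ground numbered 6, of which 3 were higher and 3 lower. The 4 shared with spaceflight, AGL42, SOC1, AGL21 and MAF4, kept their direction, and SOC1 had 17.7 FPKM at 8 d and 2.72 FPKM at 4 d on the ground.

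**Figure D4:**
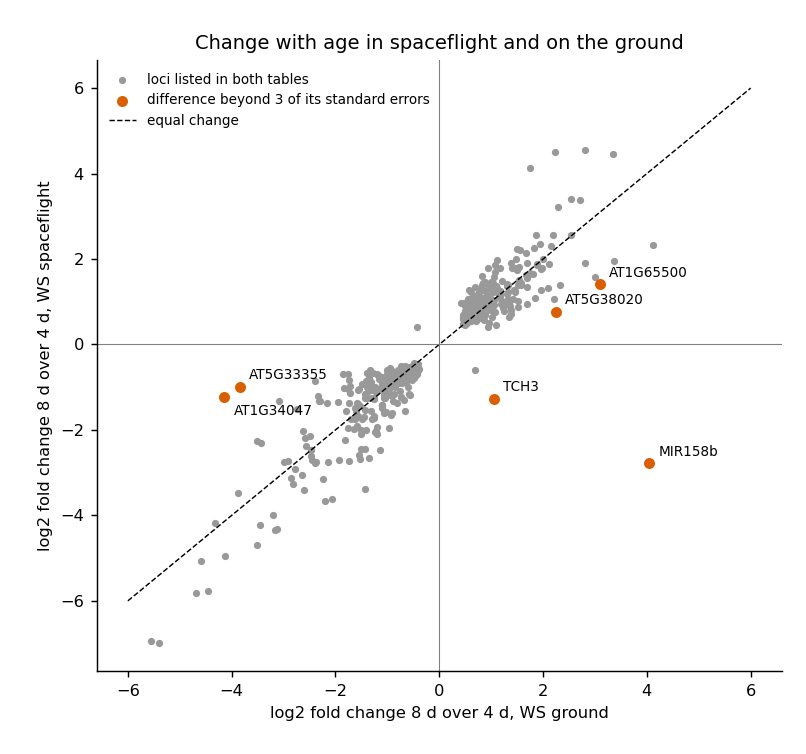
Log2 fold change of 8 d over 4 d in WS spaceflight roots (vertical) and in WS ground roots (horizontal) for the 456 loci listed in both tables with values above 0; the dashed line marks equal change. The 6 named loci differ by over 3 standard errors of the difference, and MIR158b and TCH3 are lower at 8 d in spaceflight and higher at 8 d on the ground.

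A difference could be computed only for loci listed in both tables, so loci listed in 1 table are not compared. MIR158b fell at 8 d in spaceflight, to 5.43 FPKM against 37.2 FPKM at 4 d, and was higher at 8 d on the ground, with 51.6 FPKM at 8 d and 3.12 FPKM at 4 d. The difference of its log2 fold changes was -6.82 with a standard error of 1.65. TCH3, a calmodulin-like gene induced by touch, had 22.5 FPKM at 8 d and 54.0 FPKM at 4 d in spaceflight and 21.4 FPKM at 8 d and 10.3 FPKM at 4 d on the ground, a difference of -2.32 with a standard error of 0.68. In the table that compares the environments at 4 d, which shares these samples, TCH3 had 52.6 FPKM in spaceflight and 9.44 FPKM on the ground. The other loci with opposite directions were AT1G60730, an oxidoreductase, with 24.3 FPKM at 8 d and 36.9 FPKM at 4 d in spaceflight and 21.8 FPKM at 8 d and 13.5 FPKM at 4 d on the ground, and DI19, a drought-induced zinc-finger gene, with 317 FPKM at 8 d and 238 FPKM at 4 d in spaceflight and 202 FPKM at 8 d and 274 FPKM at 4 d on the ground.

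A pair of defensin-like genes fell less in spaceflight than on the ground. AT5G33355 had 129.7 FPKM at 8 d and 257 FPKM at 4 d in spaceflight and 58.5 FPKM at 8 d and 835 FPKM at 4 d on the ground, a difference of 2.85 with a standard error of 0.62. AT1G34047 had 38.3 FPKM at 8 d and 90.2 FPKM at 4 d in spaceflight and 8.47 FPKM at 8 d and 149 FPKM at 4 d on the ground, a difference of 2.90 with a standard error of 0.77. For both, spaceflight was the lower environment at 4 d and the higher one at 8 d by these values. The methyltransferase-like gene AT5G38020 and the uncharacterized gene AT1G65500 rose less in spaceflight. AT5G38020 had 109 FPKM at 8 d and 64.1 FPKM at 4 d in spaceflight and 231 FPKM at 8 d and 48.5 FPKM at 4 d on the ground. AT1G65500 had 228 FPKM at 8 d and 86.0 FPKM at 4 d in spaceflight and 416 FPKM at 8 d and 48.8 FPKM at 4 d on the ground. MIR160b rose in both environments, with 36.8 FPKM at 8 d and 3.57 FPKM at 4 d on the ground.

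**Figure D5:**
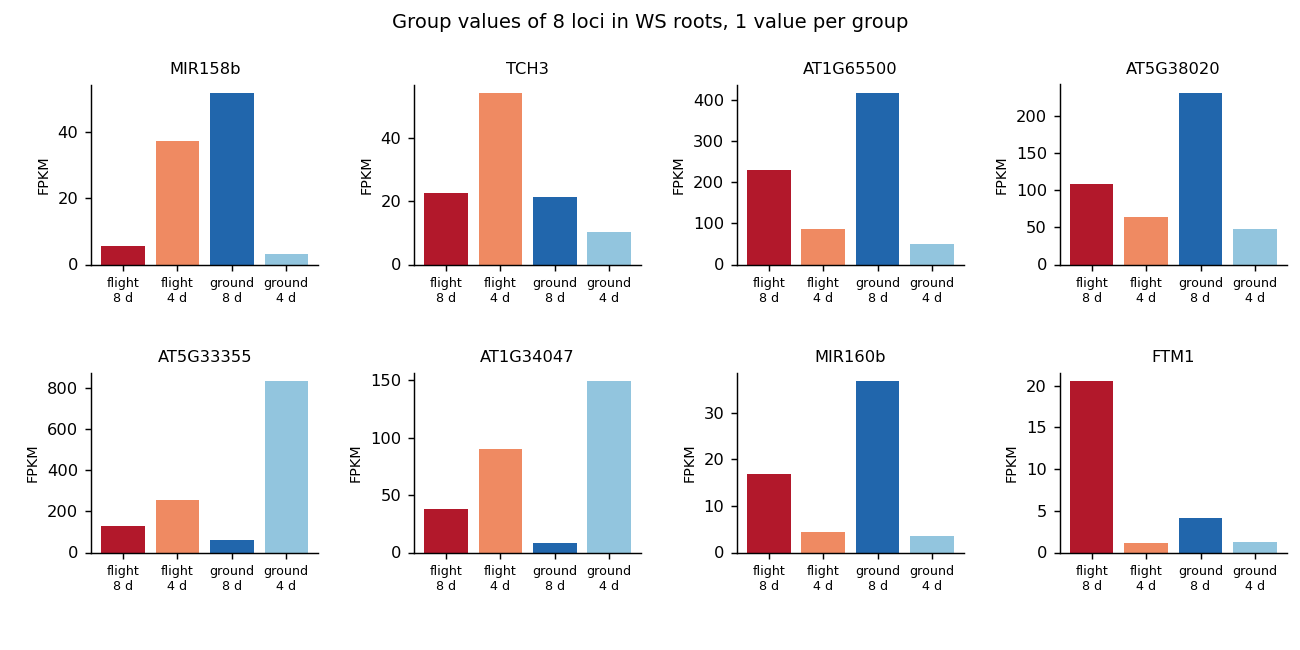
FPKM (vertical, each panel from 0 on its own scale) of 8 loci in WS roots in spaceflight at 8 d and 4 d and on the ground at 8 d and 4 d, 1 value per group and therefore no error bars; spaceflight and ground values come from separate tables. MIR158b and TCH3 have the opposite order of ages in the 2 environments, and the other 6 loci have the same order with different sizes.

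The same ages in Sku5 roots in spaceflight again use other samples. That table lists 1777 loci, 36.4% of the 4882, and shares 485 with WS in spaceflight, 45.1% of the WS loci and 27.3% of the Sku5 loci. Of the shared loci 470 moved in the same direction, 169 higher and 301 lower at 8 d. The difference between the genotypes' log2 fold changes passed 3 of its standard errors at 7 of 472 loci. TCH3 was higher at 8 d in Sku5 spaceflight roots, with 35.1 FPKM at 8 d and 15.9 FPKM at 4 d, so its fall in WS spaceflight roots recurred neither in Sku5 nor on the ground. SULTR2;1 was also opposite, with 11.3 FPKM at 8 d and 25.2 FPKM at 4 d in WS and 17.58 FPKM at 8 d and 10.8 FPKM at 4 d in Sku5. Further loci that were higher at 8 d in WS and lower in Sku5 include ADF8, with 49.0 FPKM at 8 d and 86.7 FPKM at 4 d in Sku5, and BT1, with 8.79 FPKM at 8 d and 3.57 FPKM at 4 d in WS and 16.03 FPKM at 8 d and 26.2 FPKM at 4 d in Sku5.

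Ribosomal protein loci in Sku5 spaceflight roots numbered 24 of 157, a share below the 36.4% of all loci in that table. All 24 were lower at 8 d, and 15 of them are among the 80 in WS. All 7 listed histone loci were lower in Sku5, though as 7 of 21 in any table their share is also below that 36.4%. Seed genes were lower in Sku5 at all 13 listed loci, of 15 in any table, a share above that 36.4%. SESA2 had 13.3 FPKM at 8 d and 263 FPKM at 4 d in Sku5. Of the receptor-like kinases 9 of 36 were listed in Sku5, a share below that table's 36.4%, with 8 higher, so nothing is read from this count. FTM1 had 4.84 FPKM at 8 d and 0.408 FPKM at 4 d in Sku5 and AGL42 had 38.4 FPKM at 8 d and 2.32 FPKM at 4 d, in the direction of WS.

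Some of the loci above were also listed between spaceflight and ground at 1 age. These tables share the spaceflight samples, so they are no separate evidence, and the authors' FPKM of a group differs between tables by a constant factor (8.77% for WS spaceflight at 8 d and 2.62% at 4 d). At 4 d, 5 of 11 photosynthesis loci and 3 of 15 seed loci in any table were listed, all higher in spaceflight. The share of all loci listed in that comparison was not computed, so nothing is read from these counts. RBCS3B had 65.8 FPKM in spaceflight and 21.6 FPKM on the ground. RBCS1A had 333 FPKM in spaceflight and 169 FPKM on the ground. The dehydrin XERO1 was also higher in spaceflight at 4 d, with 101 FPKM in spaceflight and 47.0 FPKM on the ground. AGL42 was lower, with 1.60 FPKM in spaceflight and 7.36 FPKM on the ground. At 8 d some genes that rose with age were lower in spaceflight than on the ground. SP1L2 had 66.5 FPKM in spaceflight and 137 FPKM on the ground at 8 d. AT5G44400 had 12.8 FPKM in spaceflight and 32.8 FPKM on the ground at 8 d. WOX4 had 23.7 FPKM in spaceflight and 36.4 FPKM on the ground at 8 d. SPX1, which fell with age, was higher in spaceflight, with 49.4 FPKM in spaceflight and 27.1 FPKM on the ground at 8 d. Of the 1075 loci, 210 stood in no other deposited table, with 117 higher and 93 lower at 8 d. Their median absolute log2 fold change was 0.85, beside 0.89 for all listed loci.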

How the data were processed

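RNA from dissected roots was made into libraries with SMART-Seq v4 and Nextera kits, per the labels' protocols. Cuffdiff and Cufflinks are listed in the submitters' processing notes, as are Picard, STAR 2.5.1b, FastQC 0.11.2 and Trimmomatic 0.36. The sources used here do not give the genome build. The authors deposited 11 Cuffdiff tables. Each lists the loci marked significant, with 1 FPKM per group, which the authors computed over the samples of the group. Per the file headers the tables also hold a log2 fold change, a test statistic, a p-value and a q-value for each locus. The authors' test statistic is a score, used here for the standard error only. The authors' p-values come in steps of 5e-05, so 406 loci share the smallest q-value of 0.00218. The standard error is rough: 595 of 1047 loci had a log2 fold change of less than 2 standard errors although their q-value is under 0.05.

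Values per sample were not available to these steps, so the fit per sample that had been planned was replaced by the authors' calls. Depth per sample is unknown. Members of a group were taken from 28 gene lists by locus tag and from 15 families by the RefSeq product name. The members and lists were chosen with earlier results of these data known, and the family patterns were adjusted after the data were seen, which left elongation factors, organellar proteins and the L18ae family out of the ribosomal proteins. A locus that merges genes counts for each list that holds one of them. The genes named were taken from the 12 largest rises and falls, the 8 highest loci in each direction and list members, with additions that the text says were chosen after their values were seen. Not all are described above. Those left out include AT5G20700, AT5G04750 and AT1G12080, which rose. They also include AT4G31875, with 0.610 FPKM at 8 d and 18.8 FPKM at 4 d, and AT1G15410, with 1228 FPKM at 8 d and 3091 FPKM at 4 d. Differences between 2 comparisons were divided by the root of their summed squared standard errors. This step was run on simulated data whose noise was drawn from those same standard errors. The simulation therefore cannot show whether the errors suit the real data. The log2 fold changes as deposited were turned so that a positive value means higher at 8 d. The authors' locus starts do not match TAIR10.1 (31 of 994 lie within 1000 bases of the reference gene's start), so TAIR10.1 served only for names and for the sequences shown. Python 3.11.15, numpy 2.4.6, pandas 2.3.3 and matplotlib 3.10.9 were used. Alternatives tried were a q-value under 0.01, a minimum of 2-fold, an FPKM of at least 1, single-gene loci and a pseudocount of 1 FPKM.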

Additional observations from a re-analysis of the deposited data

Results flagged for a closer look

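In WS, 6 loci changed with age by amounts that differed between spaceflight and the ground by more than 3 standard errors of the difference. The difference given for each is the log2 fold change of 8 d over 4 d in spaceflight minus that on the ground, and it has no p-value, because the tables hold 1 value per group. The largest was MIR158b, with a difference of -6.82, since the locus was lower at 8 d in spaceflight and higher at 8 d on the ground. TCH3 likewise went opposite ways, with a difference of -2.32. AT5G38020 and AT1G65500 rose less in spaceflight, with differences of -1.49 and -1.68. The defensin-like genes AT1G34047 and AT5G33355 fell less in spaceflight, with differences of 2.90 and 2.85.

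Between WS and Sku5 in spaceflight, 7 loci differed by more than 3 standard errors, the difference being WS minus Sku5. TCH3 differed by -2.41. SULTR2;1 differed by -1.87, being lower at 8 d in WS and higher at 8 d in Sku5. DI19 differed by 1.18, with 317 FPKM at 8 d and 238 FPKM at 4 d in WS and 266 FPKM at 8 d and 452 FPKM at 4 d in Sku5. AT1G03106 fell by more in WS, with a difference of -2.80 and 76.3 FPKM at 8 d and 1394 FPKM at 4 d in Sku5. The remaining 3 fell by less in WS. The F-box gene AT1G73120 differed by 2.68, with 10.2 FPKM at 8 d and 29.0 FPKM at 4 d in WS and 8.88 FPKM at 8 d and 162 FPKM at 4 d in Sku5. AT5G33355 differed by 2.22, with 26.8 FPKM at 8 d and 249 FPKM at 4 d in Sku5. The myosin gene ATM1 differed by 1.63, with 30.6 FPKM at 8 d and 76.6 FPKM at 4 d in WS and 25.7 FPKM at 8 d and 199.5 FPKM at 4 d in Sku5. TCH3 and AT5G33355 stood out against both other groups, which share the WS spaceflight values.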

How the results depend on the processing

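No paired analysis was possible because the deposited tables give 1 value per group and no values per sample, so leaving out single samples and blocking on the replicate number were not run. Of the counts, requiring a q-value under 0.01 gave 257 higher and 325 lower loci, and requiring at least 2-fold gave 196 higher and 244 lower loci. With at least 2-fold, 57 loci of the gene lists were left, against 91 in all, and the counts that moved in the same direction became 258 for WS on the ground and 272 for Sku5 in spaceflight, both smaller because fewer loci enter. Counts stayed within 1.5 times the reported ones with an FPKM of at least 1 at both ages, with loci of a single gene only and, chosen after seeing the data, without loci listed at 0 and without the ribosomal, seed, photosynthesis and heat shock loci. The last left 504 lower loci, against 606. These alternatives keep the same fold values and drop loci, so they could not reverse a direction. Adding 1 FPKM before taking the log2 moved 4 of 162 named loci, and it cannot change a sign. Taking the WS spaceflight values from the tables that compare them with the ground shifted every log2 fold change by 0.17. This could turn no direction, since the smallest absolute log2 fold change was 0.396. Another centring could not be tried, and depth per sample is unknown.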

Other observations

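Of the 13 loci that the authors' table leaves without a gene name, 5 lie on the mitochondrial genome, and all 5 were lower at 8 d. No listed locus lies on the chloroplast genome. The median transcript length was 1429 bases for the loci higher at 8 d, and 1404 bases for those lower at 8 d, or 1520 bases without the ribosomal proteins. Over the 4 tables that compare these ages, 161 of the loci were listed in every one, and 373 in no other.

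A gene stood in the table as 2 loci in 7 cases. The paired loci of EXT10, AT3G54580, AT2G31585, AT4G18670, GSTF14 and MLP329 moved in the same direction, and those of ARR8 did not. For MLP329 the loci had 286 FPKM at 8 d and 96.7 FPKM at 4 d and 33.8 FPKM at 8 d and 7.17 FPKM at 4 d.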
